A study of Mus musculus with 10 samples.

Results

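Expression of the Zfp genes, the mouse genes named as zinc finger proteins by a number, was described in cortical neurons given BDNF with and without extra histone variant H2BE. Members were the genes of the normalized table whose symbol is Zfp, a number and at most 1 small letter, and whose raw CPM, the count scaled by the library total, averaged at least 5 over 8 libraries. Of 374 genes with such a symbol 282 met the minimum and 92 did not, out of 21862 genes in the normalized table. The minimum used the level over all groups together and no difference between groups. Just inside it lay Zfp213 at 5.16, Zfp809 at 5.23, Zfp995 at 5.25, Zfp300 at 5.27 and Zfp109 at 5.36 raw CPM, and just outside it Zfp853 at 4.76, Zfp503 at 4.70 and Zfp647 at 4.46. All 282 members passed the filter on low counts and entered every test.

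Primary neurons were cultured from the cortex of wild-type C57BL/6J embryos at E16.5, and polyA RNA was sequenced. Every culture had been given 0.5 µM AraC, which kills dividing cells, at 3 to 4 days in vitro. Cells were infected with a control lentivirus or with a lentivirus that drives H2BE, a variant of histone H2B, from a constitutively active promoter, which is not specific to neurons. They were then left unstimulated or given BDNF, a neurotrophin that signals through the receptor TrkB, and RNA was taken 24 h later. The groups are Control (control virus, no BDNF), BDNF (control virus with BDNF), H2BE (H2BE virus, no BDNF) and H2BE-BDNF (H2BE virus with BDNF), and the BDNF dose and the viral dose are not given in the labels. Control and BDNF have 3 libraries each and H2BE and H2BE-BDNF have 2 each. The third library of Control and of BDNF exceeded the first library at 0 genes, so each group counts as 2 samples, numbered 1 and 2 under the control virus and 2 and 3 under the H2BE virus. The labels do not say whether the samples came from separate cultures, so p-values measure the spread between these samples, which may be technical.

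Zinc finger proteins of the C2H2 type hold a zinc ion in each finger between cysteines and histidines, and a row of fingers reads a DNA sequence. Many mouse Zfp proteins begin with a KRAB box, which binds the corepressor TRIM28 (KAP1). TRIM28 brings the histone methyltransferase SETDB1 and HP1 proteins, and together they silence retroelements and imprinted loci. A smaller set carries a SCAN domain, through which the proteins pair, and the rest have neither domain and include developmental regulators, RNA-binding proteins and ubiquitin ligases. KRAB zinc finger genes expanded by tandem duplication and lie in clusters of near relatives.

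Library totals ran from 5058074 to 14142545 counts, and the members took 0.776 to 0.823% of the counts of each library. All levels below are CPM after TMM scaling unless raw CPM is named, log2 fold changes are given ± their standard error with the adjusted p of edgeR's quasi-likelihood test, and the first sample of Control and of BDNF is the mean of the first and the third library. H2bc21, the gene that encodes H2BE, stood at 5.33 and 5.23 CPM in Control, 3.89 and 4.10 in BDNF, 42.7 and 35.7 in H2BE and 32.1 and 35.2 in H2BE-BDNF, and H2BE exceeded Control by 2.92 ± 0.15 on the log2 scale (adjusted p = 3.96e-08). Markers of neurons were abundant: the summed level of 7 pan-neuronal markers was 6688 to 7273 CPM in every sample. The 8 astrocyte markers summed to 61.1 to 107 CPM, the 9 oligodendrocyte lineage markers to 43.4 to 87.5 CPM and the 8 microglial markers to 5.35 to 23.9 CPM. No marker was at 0, while S100b, Mag, Sox10, P2ry12, Tmem119, Itgam, Cldn5, Kdr and Lum were under 1 CPM in every sample.

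By a profile search of the translated coding sequences, 160 members (56.7%) carry a KRAB box and 122 do not. A SCAN domain was found in 13, of which 7 also have a KRAB box. The number of C2H2 fingers matched by a sequence pattern had a median of 12 in members with a KRAB box and 7 in the others, and reached 36 in Zfp142. No finger of that pattern was found in Zfp365, Zfp330, Zfp703 or Zfp839. Members with a KRAB box were the less abundant class, with a median of 12.9 CPM against 31.0 CPM for those without. Per kilobase of exon the median was 2.71 CPM with and 5.56 CPM without a KRAB box, against 5.98 CPM for all 13452 genes tested.

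The highest raw CPM belonged to Zfp706 (207), a protein with 1 finger described in embryonic stem cells, followed by the nucleic acid binding protein Zfp638 (149.6), Zfp512b (132), Zfp704 (125) and the E3 ubiquitin ligase Zfp91 (124). These levels depend on transcript length. Per kilobase of exon Zfp428 was first with 53.3 CPM and Zfp706 second with 41.8 CPM, while Zfp638 was at 9.49 CPM and Zfp704 at 8.25 CPM. After scaling, Zfp704 ran over the samples from 109 to 152 CPM and Zfp91 from 112 to 136 CPM, so their order does not exceed the spread.

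Promoters are shown for members that moved with BDNF, to set the starts of 2 KRAB members that fell beside that of a member without a KRAB box that rose, and to show the CRE, the site that the BDNF-activated factor CREB binds. The genes shown were chosen after their values were seen. RefSeq promoters on GRCm38.p6, from 250 bases before to 50 after the gene's start, were matched for 233 of 282 members. The median number of CpG dinucleotides in the window was 12 in members with a KRAB box and 21 in those without, against 21 in the genes tested. The first 3 windows below have each CpG in capitals, 5′ to 3′ on the strand of the gene. They lie at chr17:32809882-32810181 (minus strand, 5 CpG), chr8:71908356-71908655 (plus strand, 10 CpG) and chrX:73342370-73342669 (plus strand, 20 CpG). Zfp811 and Zfp882, which have a KRAB box, fell with BDNF under both viruses, and Zfp275, which has none, rose under both. These windows do not stand for all members that moved: Zfp821, which fell under both viruses, has 42 CpG in its window, and Zfp142, which rose under the control virus, has 16.
Zfp811: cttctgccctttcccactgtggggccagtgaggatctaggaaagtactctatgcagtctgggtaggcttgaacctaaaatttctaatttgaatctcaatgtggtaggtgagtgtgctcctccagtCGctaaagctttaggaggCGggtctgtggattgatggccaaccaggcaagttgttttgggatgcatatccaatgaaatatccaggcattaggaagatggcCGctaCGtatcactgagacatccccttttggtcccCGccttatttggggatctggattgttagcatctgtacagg
Zfp882: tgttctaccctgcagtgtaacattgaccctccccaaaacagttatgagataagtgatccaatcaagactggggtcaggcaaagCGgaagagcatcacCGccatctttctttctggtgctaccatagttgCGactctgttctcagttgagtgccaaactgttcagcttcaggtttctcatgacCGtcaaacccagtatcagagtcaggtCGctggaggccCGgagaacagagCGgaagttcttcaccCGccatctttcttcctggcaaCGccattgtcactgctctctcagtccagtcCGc
Zfp275: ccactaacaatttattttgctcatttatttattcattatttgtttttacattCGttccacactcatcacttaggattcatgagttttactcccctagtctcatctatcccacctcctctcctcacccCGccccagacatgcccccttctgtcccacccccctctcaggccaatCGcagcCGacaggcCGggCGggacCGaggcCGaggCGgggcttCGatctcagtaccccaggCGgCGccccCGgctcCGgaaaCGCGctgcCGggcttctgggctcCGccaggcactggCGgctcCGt

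The CRE letters TGACGTCA, which read the same on both strands, were found in 9 members (3.86%), against 3.71% of the genes tested and 2.03% of all promoters. The 9 are Zfp266, Zfp335, Zfp367, Zfp426, Zfp523, Zfp72, Zfp868, Zfp874a and Zfp874b. Of these Zfp335 rose and Zfp874a and Zfp874b fell with BDNF under the control virus, and Zfp426 rose under the H2BE virus, so that the site was present in members that moved either way. The EGR letters GCGTGGGCG and GCGGGGGCG, searched on both strands, were found in 12 members (5.15%), against 8.11% of the genes tested. The next 3 windows have the CRE in capitals, at chr2:164911701-164912000, chr13:67451575-67451874 and chr13:67484204-67484503, all on the minus strand. The CRE starts 66 bases before the gene's start in Zfp335, 10 in Zfp874a and 12 in Zfp874b. Zfp874a and Zfp874b are tandem copies whose windows are 75.3% identical (241 of 320 aligned columns). Their exons were not compared.
Zfp335: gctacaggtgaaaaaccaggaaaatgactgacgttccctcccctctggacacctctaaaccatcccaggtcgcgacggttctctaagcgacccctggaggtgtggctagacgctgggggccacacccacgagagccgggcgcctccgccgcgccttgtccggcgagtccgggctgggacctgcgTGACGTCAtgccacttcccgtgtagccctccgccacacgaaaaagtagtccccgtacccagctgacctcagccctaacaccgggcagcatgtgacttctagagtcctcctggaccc
Zfp874a: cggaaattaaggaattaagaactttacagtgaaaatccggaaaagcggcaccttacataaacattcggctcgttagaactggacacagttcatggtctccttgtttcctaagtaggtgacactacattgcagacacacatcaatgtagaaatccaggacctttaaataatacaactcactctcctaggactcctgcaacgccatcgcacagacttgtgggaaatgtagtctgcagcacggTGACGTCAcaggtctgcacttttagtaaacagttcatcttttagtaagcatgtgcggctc
Zfp874b: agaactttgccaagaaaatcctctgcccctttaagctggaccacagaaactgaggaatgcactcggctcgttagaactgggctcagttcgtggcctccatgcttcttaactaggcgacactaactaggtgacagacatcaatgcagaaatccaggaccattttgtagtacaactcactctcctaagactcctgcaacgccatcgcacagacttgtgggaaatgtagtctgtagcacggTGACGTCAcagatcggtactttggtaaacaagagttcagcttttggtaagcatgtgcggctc

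Across the 4 groups the summed level of the members ran from 7887 to 8216 CPM, with 7899 and 8017 CPM in Control, 7967 and 7933 in BDNF, 8212 and 8216 in H2BE and 7899 and 7887 in H2BE-BDNF. H2BE was the highest group, BDNF lay above H2BE-BDNF without overlap, and the Control range spanned BDNF and reached H2BE-BDNF. Split by class, members with a KRAB box summed to 3039 and 3111 CPM in Control, 2981 and 2923 in BDNF, 3154 and 3215 in H2BE and 2994 and 2997 in H2BE-BDNF. For this class both BDNF groups lay below both groups without BDNF. Members without a KRAB box summed to 4859 and 4906 CPM in Control, 4985 and 5010 in BDNF, 5058 and 5001 in H2BE and 4904 and 4889 in H2BE-BDNF. There BDNF was above Control under the control virus and below H2BE under the H2BE virus. In bulk RNA fewer cells of a type and less RNA per cell cannot be told apart.

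The first question is how the members responded to BDNF under the control virus. BDNF lowered 40 members and raised 24 of 282 (edgeR adjusted p under 0.05), so 22.7% were called, against 31.4% of all genes tested (16.8% higher and 14.6% lower). The median level was 17.9 CPM over the members and 27.8 CPM over all genes tested. The part of level in the lower share was not tested. The median log2 fold change was -0.07 over the members and -0.01 over all genes tested, and 164 members had a negative value. Changes were small: the range was -1.34 to 1.17 on the log2 scale and 2 called members exceeded 2-fold, Zfp811 and Zfp703. The Control and BDNF samples did not overlap in 177 of the 282 members (62.8%), against 64.2% of all genes tested. Without Control library 1 the count of called members was 33, and DESeq2 called 24 (13 higher and 11 lower). Of the 64 called members 19 stayed called in every alternative analysis.

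Marker genes moved with BDNF too. The 9 progenitor markers summed to 118 to 120.5 CPM in Control and 232 to 246 in BDNF, and to 107 to 109 in H2BE and 239.9 to 243 in H2BE-BDNF, with Vim as the main source. Of these 9, 5 were called higher and 1 lower under the control virus, and 2 higher and 0 lower under the H2BE virus. Of all genes tested 31.4% and 25.8% were called. The 8 excitatory neuron markers summed to 1122 to 1132 CPM in Control, 998 to 1039 in BDNF, 1271 to 1288 in H2BE and 1086 to 1113 in H2BE-BDNF, with 5 of 8 called lower and 2 higher under the control virus and 6 lower and 2 higher under the H2BE virus. The microglial sum was 9.76 to 9.97 CPM in Control, 22.3 to 23.9 in BDNF, 5.35 to 6.91 in H2BE and 22.4 to 23.3 in H2BE-BDNF. Only 3 of the 8 microglial markers were tested, with 1 called higher under the control virus and 2 under the H2BE virus. The oligodendrocyte lineage sum was 43.4 to 46.3 CPM in Control, 76.4 to 84.5 in BDNF, 47.2 to 51.5 in H2BE and 83.7 to 87.5 in H2BE-BDNF. Of these 9 markers 7 were tested, with 1 called higher under each virus. The 5 fibroblast markers went the other way, from 36.9 to 47.2 CPM in Control to 22.8 to 31.8 in BDNF and from 38.8 to 53.9 in H2BE to 23.9 to 29.6 in H2BE-BDNF. Of these 5, 4 were tested, with 1 called lower under each virus. The part of these markers in the Zfp results was not tested.

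Developmental regulators without a KRAB box gave 10 of the 24 rises. Of 38 such genes listed 33 are members, and BDNF raised 10 and lowered 4 under the control virus, with a median log2 fold change of 0.15. That is 42.4% of the 33, against 31.4% of all genes tested, and the list was drawn up with earlier results of these data known. Under the H2BE virus 1 of the 33 rose and 4 fell, where 25.8% of all genes tested were called. Zfp703, a corepressor of the NET family, at chr8:26977325-26981461, stood at 13.9 and 17.3 CPM in Control, 33.1 and 35.6 in BDNF, 15.9 and 15.5 in H2BE and 20.9 and 25.4 in H2BE-BDNF. Its BDNF samples were well above Control and apart from all others, and the log2 fold change was 1.17 ± 0.12, adjusted p = 3.17e-06. Zfp516, known as an activator of Ucp1 in brown fat, stood at 7.65 and 5.93 CPM in Control, 11.9 and 13.9 in BDNF, 11.3 and 8.72 in H2BE and 9.09 and 10.7 in H2BE-BDNF. It was lowest in Control, and the other 3 groups overlapped or adjoined, with a log2 fold change of 0.82 ± 0.18, adjusted p = 0.00294, against Control. Zfp462, whose human counterpart is a neurodevelopmental disorder gene, stood at 30.2 and 29.8 CPM in Control, 49.0 and 47.6 in BDNF, 40.3 and 33.7 in H2BE and 45.9 and 44.0 in H2BE-BDNF. Both BDNF-treated groups were above Control and H2BE without overlap, and the log2 fold change under the control virus was 0.62 ± 0.09, adjusted p = 0.000108. Zfp142, another gene of human neurodevelopmental disorders, is described with the H2BE results and rose by 0.51 ± 0.09, adjusted p = 0.000676.

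The other 6 developmental members that rose did so by less, from 0.24 to 0.49 on the log2 scale. Zfp335, a microcephaly gene, had 14.2 and 14.3 CPM in Control and 20.1 and 19.8 in BDNF (log2 fold change 0.49 ± 0.12, adjusted p = 0.00659). Zfp592 had 32.9 and 36.3 CPM in Control and 44.3 and 48.4 in BDNF (0.35 ± 0.10, adjusted p = 0.0109). Zfp609, a partner of Nipbl and Integrator in cortical neurons, had 59.6 and 67.6 CPM in Control and 85.6 and 77.6 in BDNF (0.32 ± 0.09, adjusted p = 0.0146). BDNF was above Control in both samples of each. Zfp131 (log2 fold change 0.29 ± 0.08, adjusted p = 0.0161), Zfp518b (0.26 ± 0.08, adjusted p = 0.016) and Zfp292 (0.24 ± 0.07, adjusted p = 0.0111) completed the rises. None of the 6 kept its call with every library left out: Zfp335 was no longer called on dropping Control library 1 (adjusted p = 0.0894), Zfp592 was no longer called on dropping Control library 1 (adjusted p = 0.154) or BDNF library 2 (0.0754) and Zfp609 was no longer called on dropping Control library 1 (adjusted p = 0.237). Zfp131 was no longer called on dropping Control library 2 (adjusted p = 0.127), Zfp518b was no longer called on dropping Control library 1 (adjusted p = 0.0986) or Control library 2 (0.0806) and Zfp292 was no longer called on dropping Control library 1 (adjusted p = 0.12).

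The 4 developmental members that fell were Zfp521, Zfp608, Zfp711 and Zfp644. Zfp521, a cofactor of neural progenitors, stood at 6.31 and 7.15 CPM in Control, 3.40 and 4.18 in BDNF, 7.19 and 7.53 in H2BE and 3.59 and 4.04 in H2BE-BDNF. Both BDNF-treated groups lay below both untreated groups, with a log2 fold change of -0.76 ± 0.21, adjusted p = 0.0116, under the control virus. Zfp608, a relative of Zfp609, stood at 36.7 and 40.1 CPM in Control, 27.8 and 30.5 in BDNF, 45.0 and 43.4 in H2BE and 25.7 and 26.4 in H2BE-BDNF. Its BDNF samples were below Control, with a log2 fold change of -0.40 ± 0.10, adjusted p = 0.0046, the opposite sign to Zfp609. Zfp711, a gene of X-linked intellectual disability, had 45.1 and 41.8 CPM in Control and 35.7 and 31.1 in BDNF (-0.39 ± 0.10, adjusted p = 0.00533), and Zfp644, a partner of the methyltransferases G9a and GLP, had 97.6 and 109 CPM in Control and 87.0 and 86.5 in BDNF (-0.27 ± 0.07, adjusted p = 0.01). Zfp521 was no longer called on dropping Control library 1 (adjusted p = 0.0599) or Control library 2 (0.0597), Zfp711 was no longer called on dropping Control library 1 (adjusted p = 0.0837) and Zfp644 was no longer called on dropping Control library 2 (adjusted p = 0.0932). The remaining 19 developmental members were not called, among them Zfp148, an abundant factor that binds GC-rich promoters, at 104 and 116 CPM in Control and 117 and 114 in BDNF (0.04 ± 0.07, adjusted p = 0.702).

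A list of 22 proteins with RNA binding, translation, splicing or other non-promoter roles holds 18 members. Of these 4 rose and 2 fell under the control virus, 33.3% of the 18 against 31.4% of all genes tested. Zfp804a, whose human counterpart is associated with psychosis, stood at 88.4 and 88.9 CPM in Control, 119 and 146 in BDNF, 93.5 and 108 in H2BE and 137 and 120.1 in H2BE-BDNF and rose by 0.53 ± 0.10, adjusted p = 0.000531, on the log2 scale. Zfp207, which binds the spindle checkpoint protein Bub3, stood at 89.7 and 90.0 CPM in Control, 119 and 111 in BDNF, 101 and 96.7 in H2BE and 124 and 137 in H2BE-BDNF and rose by 0.33 ± 0.07, adjusted p = 0.00165. Both were higher in every BDNF-treated sample than in any untreated sample. Zfp706, the most abundant member, stood at 235 and 253 CPM in Control, 189 and 191 in BDNF, 214 and 221 in H2BE and 176 and 186 in H2BE-BDNF. It was highest in Control and lowest in H2BE-BDNF, with a log2 fold change of -0.38 ± 0.06, adjusted p = 0.000128, under the control virus. Zfp428, first per kilobase, fell as well, with 88.5 and 83.2 CPM in Control and 64.3 and 58.5 in BDNF (-0.42 ± 0.08, adjusted p = 0.000772). Zfp106, an RNA-binding protein (0.26 ± 0.07, adjusted p = 0.0078), and Zfp91 (0.19 ± 0.06, adjusted p = 0.0236) rose weakly. Zfp106 was no longer called on dropping Control library 1 (adjusted p = 0.0597), Control library 2 (0.052) or BDNF library 2 (0.0553) and Zfp91 was no longer called on dropping Control library 1 (adjusted p = 0.272). The ribosome-collision ligase Zfp598 (-0.02 ± 0.10, adjusted p = 0.909), the SUMO ligase Zfp451 (-0.03 ± 0.07, adjusted p = 0.754) and Zfp638 (0.08 ± 0.07, adjusted p = 0.38) were not called.

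Of the 12 largest falls 9 came from members with a KRAB box, which make up 56.7% of all members. Members with the box are also less abundant, with a median of 12.9 CPM against 31.0 CPM without it. The part of level in this ranking was not tested. Zfp811, at chr17:32795676-32809931 and with 13 fingers, stood at 16.4 and 15.2 CPM in Control, 7.28 and 6.39 in BDNF, 14.5 and 13.7 in H2BE and 7.30 and 6.64 in H2BE-BDNF. The BDNF-treated samples lay far below the untreated ones under either virus, with a log2 fold change of -1.34 ± 0.15, adjusted p = 6.05e-06, under the control virus. Zfp882, at chr8:71908608-71916354, stood at 7.00 and 10.1 CPM in Control, 4.57 and 4.84 in BDNF, 7.61 and 9.71 in H2BE and 4.07 and 4.47 in H2BE-BDNF (-0.92 ± 0.22, adjusted p = 0.00399). Zfp558 stood at 8.05 and 7.84 CPM in Control, 3.76 and 4.67 in BDNF, 9.02 and 9.11 in H2BE and 4.31 and 5.34 in H2BE-BDNF (-0.91 ± 0.20, adjusted p = 0.00276). In both the BDNF-treated samples were the lower ones without overlap. Zfp101 had 7.42 and 9.24 CPM in Control and 4.07 and 5.16 in BDNF (-0.84 ± 0.21, adjusted p = 0.00659) and Zfp560 9.57 and 10.8 CPM in Control and 6.33 and 5.41 in BDNF (-0.71 ± 0.18, adjusted p = 0.00814). Zfp747 (-0.72 ± 0.26, adjusted p = 0.0415), Zfp1006 (-0.69 ± 0.23, adjusted p = 0.0305), Zfp14 (-0.66 ± 0.17, adjusted p = 0.00764) and Zfp850 (-0.62 ± 0.15, adjusted p = 0.00543) followed. The other 3 of the 12, Zfp521, Zfp41 and Zfp2, have no KRAB box.

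Zfp41, at chr15:75616679-75629827 and with 4 fingers, stood at 35.1 and 31.4 CPM in Control, 21.6 and 18.8 in BDNF, 36.1 and 34.5 in H2BE and 21.9 and 18.9 in H2BE-BDNF. It was lower in every BDNF-treated sample than in any untreated one (-0.73 ± 0.12, adjusted p = 0.000167). Zfp2 had 30.0 and 30.0 CPM in Control and 22.3 and 16.2 in BDNF (-0.63 ± 0.14, adjusted p = 0.0024). Zfp811, Zfp882, Zfp558, Zfp101, Zfp41 and Zfp2 kept their calls with each library left out. Zfp560 was no longer called on dropping Control library 2 (adjusted p = 0.0534) or BDNF library 2 (0.0531), Zfp14 was no longer called on dropping Control library 2 (adjusted p = 0.0625) or BDNF library 2 (0.0522) and Zfp850 was no longer called on dropping Control library 1 (adjusted p = 0.163). Zfp1006 was no longer called on dropping Control library 1 (adjusted p = 0.249), Control library 2 (0.0509) or BDNF library 1 (0.186); Zfp747 was no longer called on dropping any 1 of Control library 2, BDNF library 2, H2BE-BDNF library 2 and H2BE-BDNF library 3 (adjusted p of 0.0507 to 0.248). With DESeq2 Zfp558 had an adjusted p of 0.0506 and Zfp101 of 0.0726.

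Further rises came from both classes. Zfp275, on the X chromosome at chrX:73342621-73359080, stood at 43.5 and 42.7 CPM in Control, 64.6 and 75.4 in BDNF, 43.6 and 47.8 in H2BE and 73.4 and 63.5 in H2BE-BDNF (0.66 ± 0.10, adjusted p = 8.76e-05). Zfp948, a KRAB member at chr17:21567008-21588699, stood at 21.5 and 23.0 CPM in Control, 34.9 and 33.8 in BDNF, 23.5 and 23.8 in H2BE and 32.3 and 33.1 in H2BE-BDNF (0.59 ± 0.10, adjusted p = 0.00021). Both were higher in each BDNF-treated sample than in any untreated one. Zfp398, with a KRAB box, had 25.2 and 25.5 CPM in Control and 39.1 and 36.2 in BDNF (0.51 ± 0.11, adjusted p = 0.00188). Zfp800 (0.60 ± 0.16, adjusted p = 0.00976), Zfp612 (0.58 ± 0.17, adjusted p = 0.0162) and Zfp382 (0.43 ± 0.16, adjusted p = 0.0437) were also called. Zfp800 was no longer called on dropping Control library 2 (adjusted p = 0.0615) or BDNF library 2 (0.083) and Zfp612 was no longer called on dropping Control library 1 (adjusted p = 0.299) or BDNF library 1 (0.0744). Zfp382 was no longer called on dropping any 1 of Control library 1, Control library 2, BDNF library 2, H2BE library 2, H2BE library 3, H2BE-BDNF library 2 and H2BE-BDNF library 3 (adjusted p of 0.0555 to 0.406).

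A list of 11 KRAB proteins with described imprint, retroelement, developmental or p75 neurotrophin receptor links holds 7 members. Of these 7, 2 rose under the control virus, where 31.4% of all genes tested were called in either direction. Zfp57, which keeps methylation at imprinted loci through Trim28, stood at 67.6 and 65.0 CPM in Control, 83.0 and 83.5 in BDNF, 84.3 and 80.4 in H2BE and 92.5 and 91.7 in H2BE-BDNF. Control was the lowest group, and BDNF exceeded it by 0.33 ± 0.07, adjusted p = 0.00146, on the log2 scale. Zfp445, its partner in imprint maintenance, had 56.8 and 65.4 CPM in Control and 73.5 and 70.3 in BDNF (0.22 ± 0.08, adjusted p = 0.0396). Zfp445 was no longer called on dropping any 1 of Control library 1, BDNF library 1, H2BE library 2, H2BE library 3, H2BE-BDNF library 2 and H2BE-BDNF library 3 (adjusted p of 0.0547 to 0.516). Zfp110 and Zfp369, which bind the p75 neurotrophin receptor, were not called under either virus: Zfp110 had 0.07 ± 0.11, adjusted p = 0.67, under the control virus and -0.22 ± 0.13, adjusted p = 0.245, under the H2BE virus, and Zfp369 had 0.03 ± 0.12, adjusted p = 0.882 and 0.15 ± 0.14, adjusted p = 0.469. The retroviral silencer Zfp809 stood near the minimum at 4.39 and 6.28 CPM in Control, 6.65 and 4.67 in BDNF, 4.23 and 3.37 in H2BE and 5.86 and 6.93 in H2BE-BDNF, with 0.71 ± 0.29, adjusted p = 0.0835, under the H2BE virus. Zfp932 and Zfp961 were not called either.

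By DESeq2 40 of the 64 calls under the control virus were lost (adjusted p of 0.0506 to 0.315). Among the genes named here these were Zfp1006, Zfp101, Zfp131, Zfp14, Zfp160, Zfp282, Zfp292, Zfp335, Zfp382, Zfp420, Zfp445, Zfp518b, Zfp521, Zfp558, Zfp560, Zfp563, Zfp592, Zfp608, Zfp612, Zfp711, Zfp729a, Zfp747, Zfp772, Zfp800, Zfp821, Zfp850, Zfp874a, Zfp874b and Zfp91. After a length and GC correction 9 calls were lost (adjusted p of 0.054 to 0.317), among them those of Zfp1006, Zfp160, Zfp292, Zfp518b, Zfp874a and Zfp91. Without the filter on low counts 8 calls were lost (adjusted p of 0.0531 to 0.13), among them those of Zfp282, Zfp382, Zfp445, Zfp729a and Zfp874a. With RLE size factors 3 calls were lost (adjusted p of 0.0505 to 0.0548), among them that of Zfp282.

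**Figure D1:**
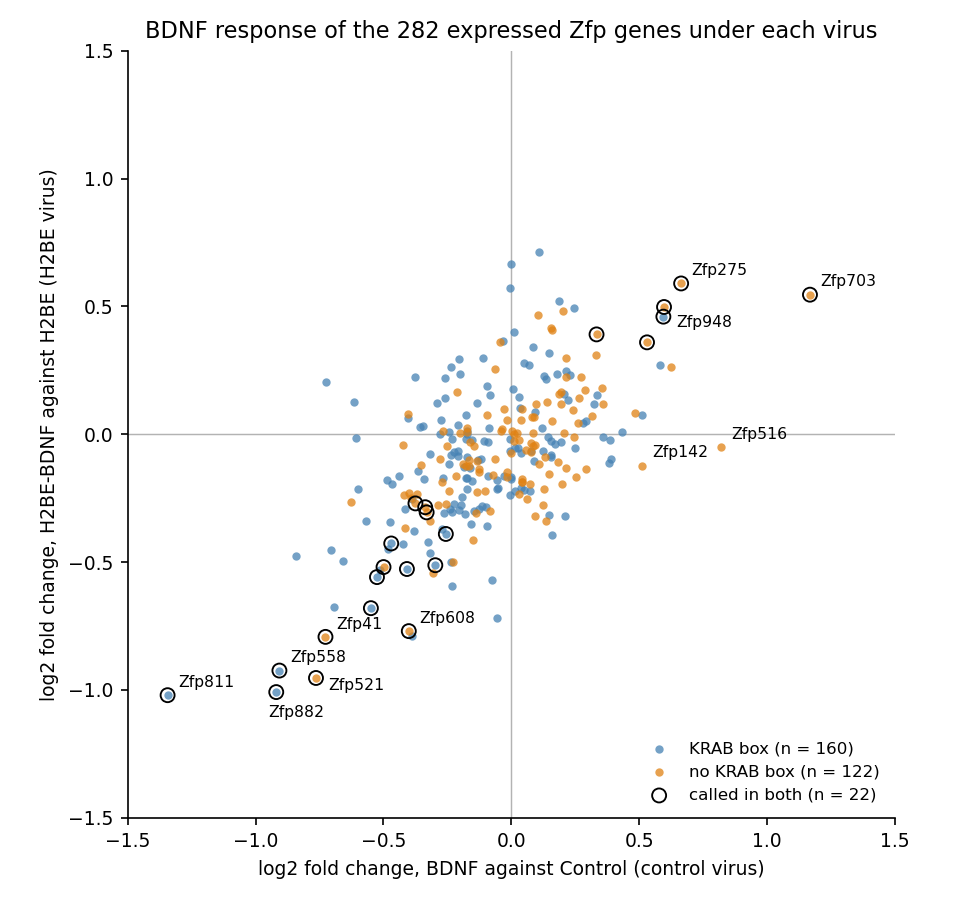
Each point is 1 of the 282 members, with its log2 fold change of BDNF against Control on the x axis and of H2BE-BDNF against H2BE on the y axis, coloured by KRAB box and ringed where called under both viruses. The 22 ringed members lie in the lower left (16) and upper right (6) corners, with Zfp811 at the lower left end and Zfp703 at the right.

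The same response was then measured under the H2BE virus. BDNF lowered 24 and raised 9 of the 282 members, so 11.7% were called, against 25.8% of all genes tested (13.4% higher and 12.3% lower). The part of the members' lower level in this share was not tested either. The median log2 fold change was -0.08 over the members and -7.1e-05 over all genes tested, and 177 members had a negative value. The largest changes were -1.02 and 0.71, and the latter, Zfp809, was not called. Calls here depended on single libraries: 12 members were called without H2BE library 2, 16 without H2BE-BDNF library 2, 19 without H2BE library 3 and 20 without H2BE-BDNF library 3, and DESeq2 called 13. Of the 33 called members 8 stayed called in every alternative analysis.

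Zfp811 again fell most, with a log2 fold change of -1.02 ± 0.18, adjusted p = 0.00044, followed by Zfp882 (-1.01 ± 0.25, adjusted p = 0.0071), Zfp521 (-0.95 ± 0.24, adjusted p = 0.00817) and Zfp558 (-0.92 ± 0.22, adjusted p = 0.00619). Zfp41 had -0.79 ± 0.13, adjusted p = 0.000285 and Zfp608 -0.77 ± 0.11, adjusted p = 6.07e-05. Zfp704 had 152 and 144 CPM in H2BE and 115 and 109 in H2BE-BDNF (-0.41 ± 0.07, adjusted p = 0.000211). Under the control virus Zfp704 had 122 and 129 CPM in Control and 119.7 and 115 in BDNF without a call (-0.15 ± 0.06, adjusted p = 0.0794). Zfp703 rose, with 0.55 ± 0.15, adjusted p = 0.0117. Zfp882 was no longer called on dropping H2BE library 3 (adjusted p = 0.0692) or H2BE-BDNF library 2 (0.0601), Zfp521 was no longer called on dropping H2BE library 2 (adjusted p = 0.0541) or H2BE-BDNF library 2 (0.0783) and Zfp558 was no longer called on dropping H2BE library 2 (adjusted p = 0.0512) or H2BE-BDNF library 2 (0.0818). Zfp703 was no longer called on dropping H2BE library 2 (adjusted p = 0.0785), H2BE library 3 (0.0632) or H2BE-BDNF library 3 (0.12).

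Members called under the H2BE virus and not under the control virus include 2 neighbours of a chromosome 13 cluster, Zfp759 and Zfp458. Zfp759 had 10.7 and 12.9 CPM in H2BE and 7.42 and 6.06 in H2BE-BDNF (-0.79 ± 0.20, adjusted p = 0.00798), and under the control virus 10.1 and 9.24 CPM in Control and 6.46 and 7.79 in BDNF (-0.39 ± 0.18, adjusted p = 0.108). Zfp458 had 8.60 and 9.11 CPM in H2BE and 4.66 and 6.21 in H2BE-BDNF (-0.72 ± 0.24, adjusted p = 0.0402), and under the control virus 6.86 and 8.19 CPM in Control and 6.49 and 8.61 in BDNF (-0.06 ± 0.21, adjusted p = 0.864). Zfp607b (-0.59 ± 0.16, adjusted p = 0.0135), the SCAN member Zfp174 (-0.54 ± 0.17, adjusted p = 0.0234) and Zfp740 (-0.31 ± 0.09, adjusted p = 0.0248) also fell. Zfp954 (0.57 ± 0.17, adjusted p = 0.0192), Zfp277 (0.47 ± 0.14, adjusted p = 0.0248) and Zfp426 (0.32 ± 0.09, adjusted p = 0.0208) rose. A call under 1 virus and not the other does not show that the responses differ, and for none of these 8 was the difference between the responses called. Zfp759 was no longer called on dropping H2BE library 3 (adjusted p = 0.074) or H2BE-BDNF library 3 (0.0752), Zfp607b was no longer called on dropping H2BE library 2 (adjusted p = 0.152), H2BE-BDNF library 2 (0.0591) or H2BE-BDNF library 3 (0.0834) and Zfp740 was no longer called on dropping H2BE library 2 (adjusted p = 0.244), H2BE-BDNF library 2 (0.114) or H2BE-BDNF library 3 (0.0957). Zfp458 was no longer called on dropping H2BE library 2 (adjusted p = 0.135), H2BE library 3 (0.137) or H2BE-BDNF library 2 (0.272), Zfp954 was no longer called on dropping H2BE library 2 (adjusted p = 0.194), H2BE-BDNF library 2 (0.0725) or H2BE-BDNF library 3 (0.0833) and Zfp277 was no longer called on dropping H2BE library 3 (adjusted p = 0.191) or H2BE-BDNF library 3 (0.216). Zfp174 was no longer called on dropping any 1 of H2BE library 2, H2BE library 3, H2BE-BDNF library 2 and H2BE-BDNF library 3 (adjusted p of 0.0812 to 0.135), and Zfp426 was no longer called on dropping any 1 of H2BE library 2, H2BE library 3, H2BE-BDNF library 2 and H2BE-BDNF library 3 (adjusted p of 0.07 to 0.117).

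By DESeq2 20 of the 33 calls under the H2BE virus were lost (adjusted p of 0.0539 to 0.21). Among the genes named here these were Zfp174, Zfp277, Zfp317, Zfp420, Zfp426, Zfp458, Zfp521, Zfp558, Zfp563, Zfp607b, Zfp703, Zfp740, Zfp759, Zfp772, Zfp800, Zfp821, Zfp948 and Zfp954. Without the filter on low counts the response of Zfp800 under the H2BE virus was not called (adjusted p = 0.0528). With RLE size factors the response of Zfp800 under the H2BE virus was not called (adjusted p = 0.0517).

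Under both viruses 22 members were called, 16 lower and 6 higher, and none in opposite directions. They make up 34.4% of the members called under the control virus and 66.7% of those called under the H2BE virus, against 51.8% and 63.2% for all genes tested, where 30 genes were called in opposite directions. These responses share no library, and across the 282 members they correlated with a Pearson r of 0.608 and a Spearman rho of 0.540, against 0.714 and 0.595 across all genes tested. Genes are not independent replicates, and the points of a response share its libraries, so no p is given. The members that rose in both are Zfp207, Zfp804a, Zfp948, Zfp800, Zfp275 and Zfp703. Those that fell in both are Zfp811, Zfp882, Zfp558, Zfp521, Zfp41, Zfp772, Zfp563, Zfp420, Zfp317, Zfp316, Zfp608, Zfp706, Zfp512, Zfp821, Zfp46 and Zfp282, of which Zfp420, Zfp317, Zfp316, Zfp512, Zfp821, Zfp46 and Zfp282 were singled out after their values were seen. Zfp811, Zfp41, Zfp46, Zfp207 and Zfp275 kept both calls in every alternative analysis, and each of the other 17 lost at least 1.

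Zfp46, a KRAB member, stood at 97.2 and 105 CPM in Control, 85.3 and 80.9 in BDNF, 112 and 120.1 in H2BE and 84.3 and 78.7 in H2BE-BDNF. Both BDNF-treated groups were below both untreated ones, with -0.30 ± 0.07, adjusted p = 0.00449, under the control virus and -0.51 ± 0.08, adjusted p = 0.000113, under the H2BE virus. Zfp512 stood at 111 and 113 CPM in Control, 89.4 and 89.4 in BDNF, 110.4 and 108 in H2BE and 87.9 and 92.2 in H2BE-BDNF (-0.34 ± 0.06, adjusted p = 0.000721 and -0.29 ± 0.07, adjusted p = 0.0055). Zfp316 stood at 57.0 and 46.0 CPM in Control, 38.6 and 37.9 in BDNF, 55.0 and 53.3 in H2BE and 40.2 and 35.1 in H2BE-BDNF (-0.41 ± 0.10, adjusted p = 0.00441 and -0.53 ± 0.11, adjusted p = 0.00172). Their falls were modest and without overlap between treated and untreated samples of the same virus. Of the 6 that rose, Zfp207 (0.39 ± 0.07, adjusted p = 0.000869) and Zfp275 (0.59 ± 0.11, adjusted p = 0.000732) kept their calls under the H2BE virus with each library left out. Zfp512 was no longer called on dropping H2BE library 2 (adjusted p = 0.061) or H2BE-BDNF library 2 (0.071), Zfp706 was no longer called on dropping H2BE-BDNF library 2 (adjusted p = 0.0592) and Zfp804a was no longer called on dropping H2BE library 2 (adjusted p = 0.223) or H2BE-BDNF library 2 (0.16). Zfp316 was no longer called on dropping Control library 1 (adjusted p = 0.172) under the control virus, and Zfp948 was no longer called on dropping H2BE library 2 (adjusted p = 0.0612) under the H2BE virus.

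**Figure D2:**
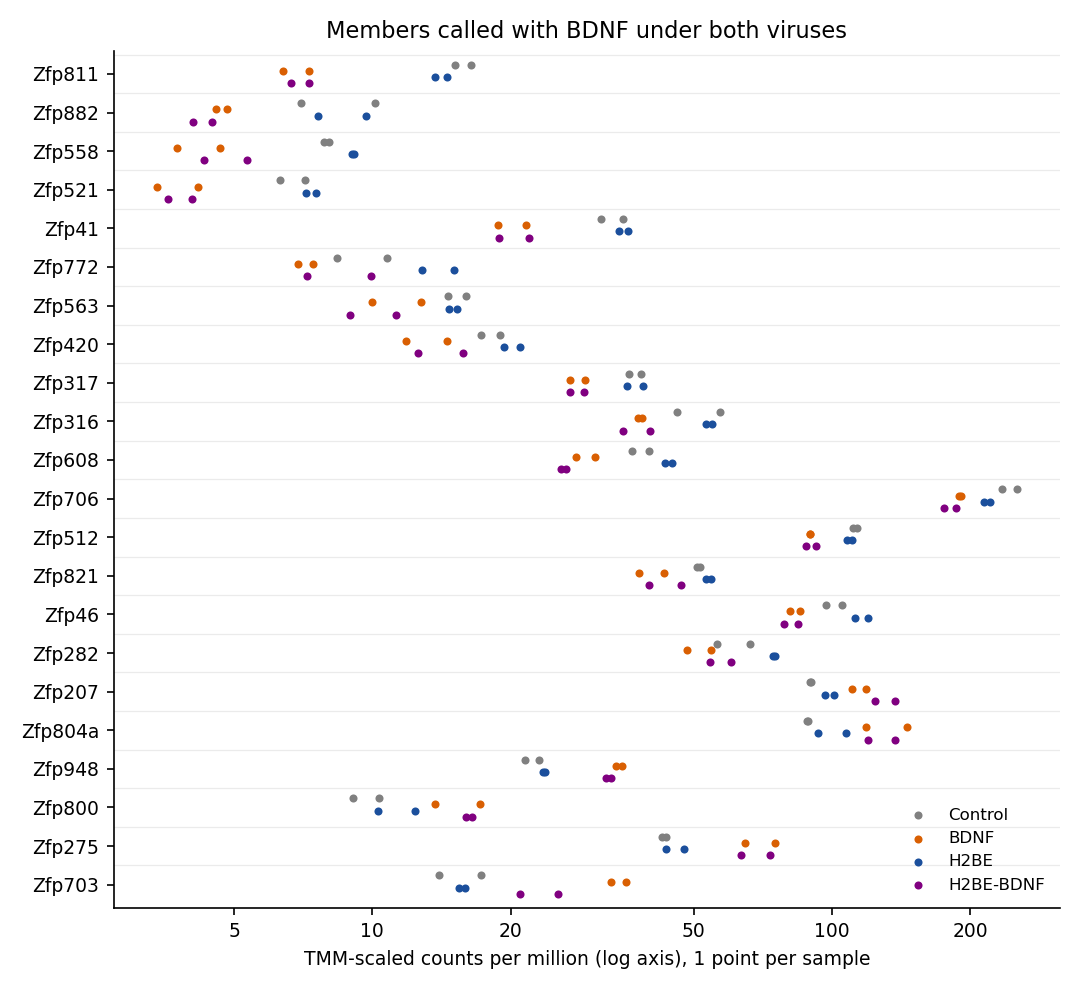
Levels in each sample (TMM-scaled CPM, log axis) are shown for the 22 members called with BDNF under both viruses, 1 row per gene and 1 point per sample, coloured by group. In the upper 16 rows the BDNF and H2BE-BDNF points lie left of the Control and H2BE points of the same virus, and in the lower 6 rows right of them.

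Members with and without a KRAB box were then set side by side. Under the control virus the median log2 fold change was -0.14 over the 160 members with a KRAB box, of which 107 (66.9%) were negative, and 0.02 over the 122 without, of which 57 (46.7%) were negative. With the box 8 rose and 21 fell, and without it 16 rose and 19 fell. That is 29 of 160 and 35 of 122 called, against 31.4% of all genes tested (16.8% higher and 14.6% lower). By DESeq2 4 rose and 5 fell with the box, so that 55.6% of the calls were falls in place of 72.4%, and 9 rose and 6 fell without it. Under the H2BE virus the medians were -0.08 and -0.06, with 3 rises and 14 falls among members with a KRAB box and 6 rises and 10 falls among the others. These are 17 of 160 and 16 of 122 called, against 25.8% of all genes tested. The median over members with a KRAB box stayed between -0.16 and -0.10 under the control virus in every alternative, while that over members without one was -0.01 without Control library 1 and -0.004 without BDNF library 1.

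The classes differ in level as well. Among members above the member median of 17.9 CPM the median log2 fold change under the control virus was -0.11 for 56 with and 0.04 for 85 without a KRAB box. Below that level it was -0.16 for 104 with and -0.08 for 37 without. GC content of the transcripts had a median of 42.5% with and 48.7% without the box, against 49.5% over all genes tested. The part of level and GC content in the difference was not tested. The 13 SCAN members had a median of 0.10 under the control virus, with 1 rise, Zfp445, where 16.8% of all genes tested were called higher. The call of Zfp445 was not kept in every alternative.

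**Figure D3:**
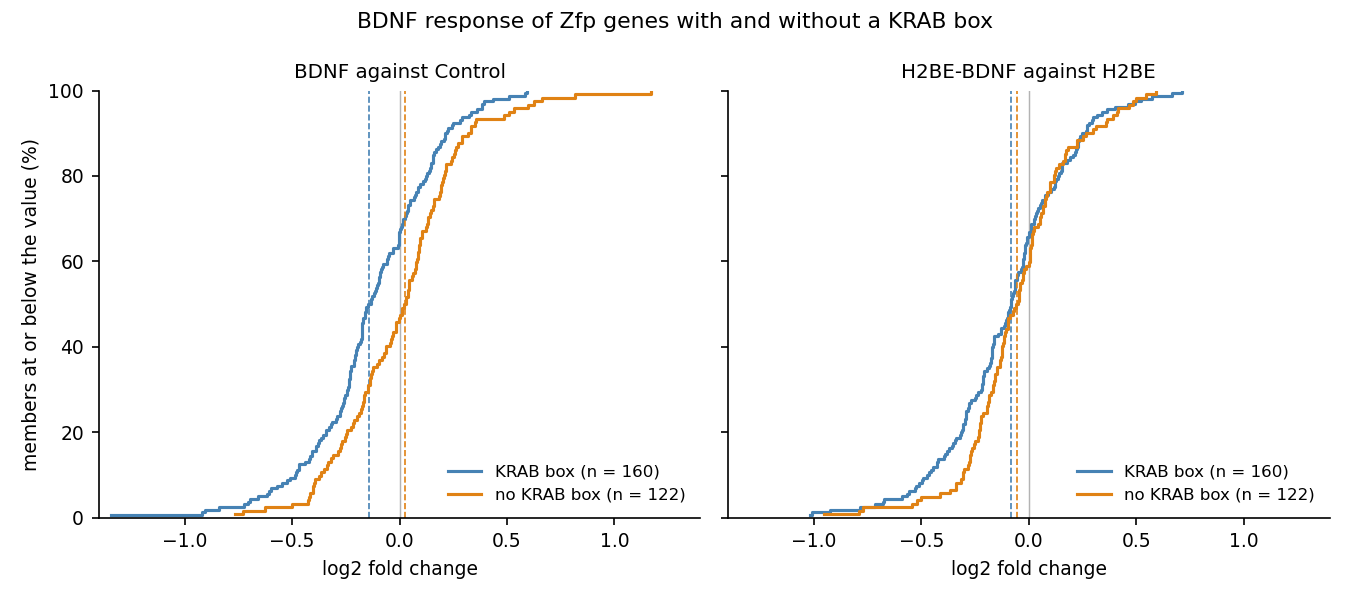
Curves give the percentage of members at or below each log2 fold change, for 160 members with and 122 without a KRAB box, under the control virus (left) and the H2BE virus (right), with dashed lines at the class medians. The KRAB curve lies left of the other on the left panel (medians -0.14 and 0.02), and the curves lie close on the right (-0.08 and -0.06).

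By position 123 members (43.6%) lie in 14 clusters of at least 4 members with gaps of at most 500 kb, and 98 of those 123 have a KRAB box, against 62 of the 159 elsewhere. Chromosome 7 holds 71 members, chromosome 17 holds 35, and chromosomes 8 and 13 hold 21 each. The cluster from Zfp712 to Zfp273, at chr13:67038596-67827002 in GENCODE M21 on mm10, has 13 members, all with a KRAB box. Of these 10 had a negative log2 fold change under each virus, with medians of -0.23 and -0.30. Of all members with a KRAB box 57.1% above and 72.1% below the member median level were negative under the control virus. So were all 6 members of the cluster from Zfp787 to Zfp28 on chromosome 7. In the chromosome 13 cluster 1 member rose and 2 fell under the control virus, where 31.4% of all genes tested were called. Zfp874b (log2 fold change -0.48 ± 0.14, adjusted p = 0.0187) and Zfp874a (-0.42 ± 0.15, adjusted p = 0.0375) fell there under the control virus and Zfp729a rose (0.38 ± 0.14, adjusted p = 0.0449). These 3 were singled out after their values were seen, and Zfp729a lies beside the tandem gene Zfp729b, and how reads that fit both were counted is not given. Zfp874b was no longer called on dropping Control library 1 (adjusted p = 0.149), Control library 2 (0.0526) or BDNF library 1 (0.0951), and Zfp729a was no longer called on dropping any 1 of Control library 1, Control library 2, BDNF library 1, H2BE library 2, H2BE library 3, H2BE-BDNF library 2 and H2BE-BDNF library 3 (adjusted p of 0.0616 to 0.186). Zfp874a was no longer called on dropping any 1 of Control library 1, Control library 2, BDNF library 1, H2BE library 2, H2BE library 3, H2BE-BDNF library 2 and H2BE-BDNF library 3 (adjusted p of 0.0501 to 0.237).

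The cluster with Zfp811 at chr17:32765496-33631779 has 12 members, of which 1 rose and 3 fell under the control virus and 3 fell under the H2BE virus. Of all genes tested 31.4% were called under the control virus and 25.8% under the H2BE virus. Zfp811 and Zfp871 lie in the same cluster and moved in opposite directions, since Zfp871 had 40.0 and 48.3 CPM in Control and 60.2 and 58.4 in BDNF (0.38 ± 0.09, adjusted p = 0.00573). Without Control library 1 the value for Zfp871 was 0.24 and the call was lost (adjusted p = 0.197). In the cluster from Zfp160 to Zfp13 at chr17:21008903-23599487, with 19 members, all with a KRAB box, Zfp948 rose while the median was -0.18 under the control virus. The cluster of Zfp882 at chr8:71882019-71993792 has 4 members and a median of -0.29. Members of a cluster resemble each other in sequence, and how reads that fit more than 1 gene were counted is not given, so counts of neighbours are uncertain. Overlapping and antisense genes cannot be told apart either, because the strand setting of the counting is not given.

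**Figure D4:**
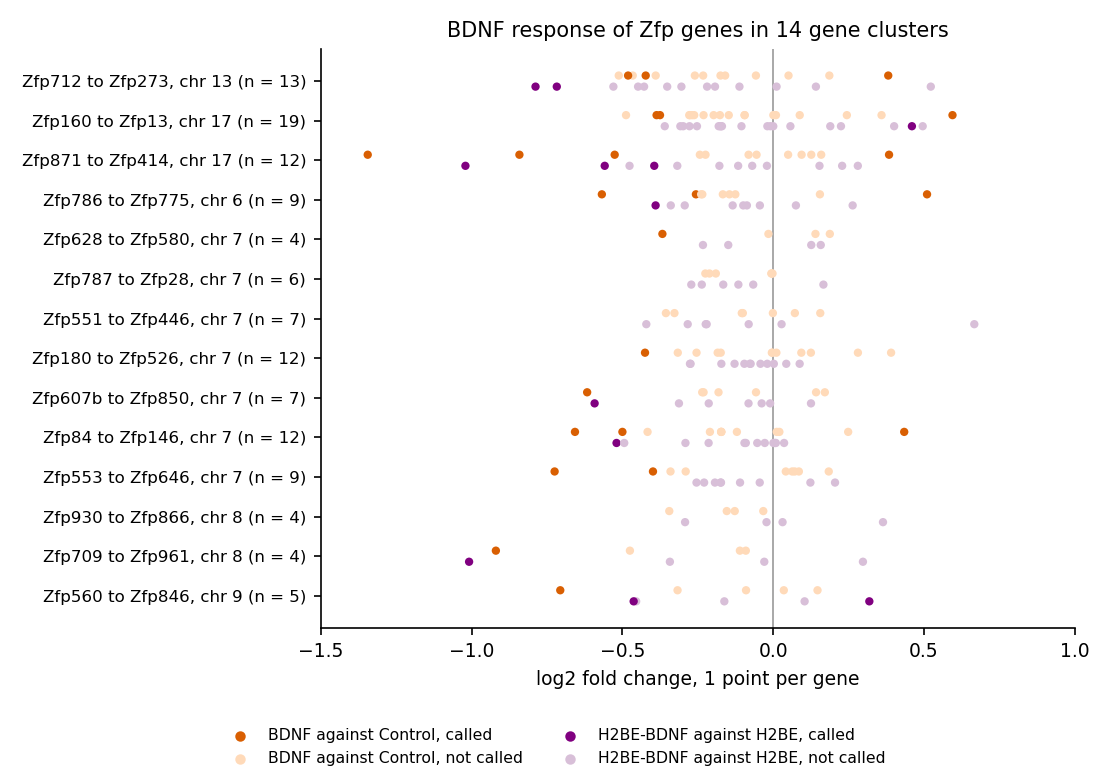
Each row is 1 of 14 clusters of neighbouring members, named by its first and last gene, and each point is the log2 fold change of 1 gene under the control virus (orange) or the H2BE virus (purple), with called genes in the darker shade. Points spread to both sides of 0 in most rows, and the lowest value is that of Zfp811 in the third row.

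Few members differed between the viruses. In unstimulated neurons 2 were higher and 1 lower in H2BE than in Control, 1.06% of 282. Of all genes tested 2.13% were called, 1.33% higher and 0.803% lower. The median log2 fold change was 0.06 over the members and 0.0001 over all genes tested. Zfp142, with 36 fingers at chr1:74565127-74588246, stood at 25.9 and 27.9 CPM in Control, 39.9 and 38.8 in BDNF, 39.0 and 34.5 in H2BE and 33.7 and 34.5 in H2BE-BDNF. Control was below the other 3 groups, and H2BE exceeded Control by 0.45 ± 0.10, adjusted p = 0.0362. Zfp57 was higher in H2BE (0.32 ± 0.07, adjusted p = 0.032) and Zfp428 lower (-0.35 ± 0.09, adjusted p = 0.0498): Zfp428 stood at 88.5 and 83.2 CPM in Control, 64.3 and 58.5 in BDNF, 66.0 and 67.2 in H2BE and 64.4 and 65.4 in H2BE-BDNF. In all 3 the H2BE group lay on the same side of Control as the BDNF group, and both comparisons use the Control samples. None of the 3 kept its call with every library left out: Zfp142 was no longer called on dropping any 1 of Control library 1, Control library 2, H2BE library 2 and H2BE library 3 (adjusted p of 0.0637 to 0.421), and Zfp57 was no longer called on dropping any 1 of Control library 1, Control library 2, H2BE library 2 and H2BE library 3 (adjusted p of 0.0833 to 0.349). Zfp428 was no longer called on dropping any 1 of Control library 1, Control library 2, H2BE library 2, H2BE library 3, H2BE-BDNF library 2 and H2BE-BDNF library 3 (adjusted p of 0.0624 to 0.427). Across all members the count ran from 0, without Control library 1 or 2 or without H2BE library 2 or 3, to 11 without either BDNF library, and DESeq2 called 1, with no adjusted p for 248 members.

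With BDNF present, 0 of 282 members differed between H2BE-BDNF and BDNF by edgeR, against 0.0223% of all genes tested. At an unadjusted p under 0.05 the count was 23 (8.16%), against 11.4% of all genes tested, and DESeq2 called 0, with no adjusted p for 274 members. The median log2 fold change was 0.006. The count was 8 without BDNF library 1. A BDNF response that differed by virus was called for 1 member, Zfp142, against 1.15% of all genes tested, with a median of -0.02 over the members. Zfp142 rose with BDNF under the control virus and had -0.12 ± 0.10, adjusted p = 0.42, under the H2BE virus, a difference of -0.63 ± 0.14, adjusted p = 0.0444. Zfp142 was no longer called on dropping any 1 of Control library 1, Control library 2, H2BE library 2, H2BE library 3, H2BE-BDNF library 2 and H2BE-BDNF library 3 (adjusted p of 0.0568 to 0.306). Zfp703 (-0.62 ± 0.19, adjusted p = 0.13), Zfp516 (-0.87 ± 0.28, adjusted p = 0.135) and Zfp462 (-0.36 ± 0.14, adjusted p = 0.214) also had smaller values under the H2BE virus, without a call for the difference.

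**Figure D5:**
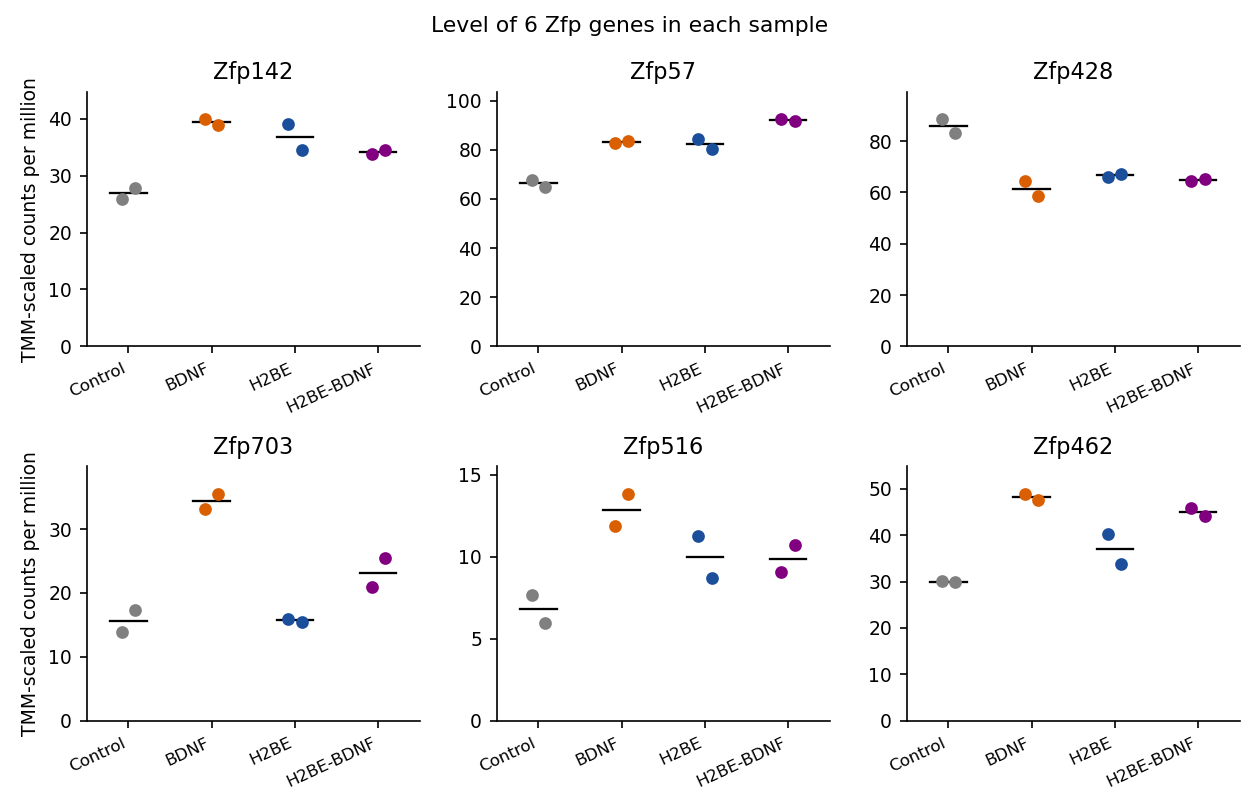
Levels of 6 members in each sample (TMM-scaled CPM, 1 point per sample, bar at the group mean, y axis from 0). Zfp142 and Zfp57 are lowest and Zfp428 highest in Control, and Zfp703 is highest in BDNF, at 33.1 and 35.6 CPM.

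The corepressors that KRAB proteins recruit are not members and were read from a list of 45 symbols. Some genes are listed there under both an older and a newer name, and 39 genes were tested. BDNF raised 4 and lowered 7 under the control virus, with a median log2 fold change of -0.02, and raised 4 and lowered 3 under the H2BE virus. The shares called were 28.2% and 17.9% of the 39, against 31.4% and 25.8% of all genes tested. Trim28, the KRAB corepressor itself, stood at 239 and 227 CPM in Control, 194 and 184 in BDNF, 209 and 199 in H2BE and 192 and 196 in H2BE-BDNF. Control was the highest group, with -0.28 ± 0.06, adjusted p = 0.00163, for BDNF against Control and -0.08 ± 0.06, adjusted p = 0.354, under the H2BE virus. Setdb1 was not called in either. Rbbp7, a histone-binding subunit of the NuRD complex, rose under both viruses (0.30 ± 0.05, adjusted p = 0.000379 and 0.54 ± 0.06, adjusted p = 4.27e-06), and the DNA methyltransferase Dnmt3a fell under both (-0.23 ± 0.05, adjusted p = 0.00206 and -0.41 ± 0.05, adjusted p = 1.93e-05). Mbd2 (0.55 ± 0.12, adjusted p = 0.00291) and Gatad2a (0.34 ± 0.08, adjusted p = 0.0053), of the same complex, rose under the control virus. Without Control library 1 the count was 5, and Gatad2a was no longer called on dropping Control library 1 (adjusted p = 0.103).

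Under the H2BE virus Mbd2 rose too (0.44 ± 0.14, adjusted p = 0.0292), a call lost on dropping any 1 of the H2BE and H2BE-BDNF libraries (adjusted p of 0.053 to 0.211). Gatad2a also rose (0.41 ± 0.09, adjusted p = 0.00439), as did Tasor2 of the HUSH silencing complex (0.32 ± 0.09, adjusted p = 0.0124), while Chd3 (-0.23 ± 0.05, adjusted p = 0.00419) and Ehmt2, or G9a (-0.24 ± 0.06, adjusted p = 0.0059) fell. Chd3 was no longer called on dropping H2BE library 2 (adjusted p = 0.0558) or H2BE-BDNF library 2 (0.082), Ehmt2 was no longer called on dropping H2BE library 2 (adjusted p = 0.0981) or H2BE-BDNF library 2 (0.0561) and Gatad2a was no longer called on dropping H2BE-BDNF library 3 (adjusted p = 0.0565). Tasor2 was no longer called on dropping H2BE library 2 (adjusted p = 0.172), H2BE-BDNF library 2 (0.0707) or H2BE-BDNF library 3 (0.0539). The count of called corepressor genes was 3 without H2BE library 2 or H2BE-BDNF library 2 and 4 without H2BE-BDNF library 3. Between H2BE and Control, Chd3 was higher (0.23 ± 0.05, adjusted p = 0.0326) and Rbbp7 lower (-0.25 ± 0.06, adjusted p = 0.0363). Chd3 was no longer called on dropping any 1 of Control library 1, Control library 2, H2BE library 2 and H2BE library 3 (adjusted p of 0.063 to 0.374), and Rbbp7 was no longer called on dropping any 1 of Control library 1, Control library 2, H2BE library 2, H2BE library 3, H2BE-BDNF library 2 and H2BE-BDNF library 3 (adjusted p of 0.0546 to 0.39).

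Other zinc finger genes give the setting. Of the 92 Zfp genes under the minimum 56 were tested, and 1 rose and 4 fell with BDNF under the control virus, with a median of -0.24. That is 8.93% of the 56, against 31.4% of all genes tested. The 56 all lie under the minimum level, while the median over all genes tested was 27.8 CPM. The part of level in this lower share was not tested. Among 83 genes of the Zbtb, Zkscan, Zscan, Zfhx, Klf and Prdm families BDNF raised 9 and lowered 10 under the control virus and raised 3 and lowered 17 under the H2BE virus, so that 22.9% and 24.1% were called, against 31.4% and 25.8% of all genes tested. Of these Klf had 4 rises and 2 falls among 15 under the control virus, and Zbtb had 3 rises and 4 falls among 38.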

How the data were processed

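PolyA RNA of 10 libraries in 4 groups was analysed. The authors deposited raw counts for 48526 genes, and a table of signal values, the raw counts of each library divided by 1 size factor, for 21862 genes. The signal table of the authors served here for symbols only, and the counts for every test. The submitters' processing notes name mm10, SAMtools, DESeq2 and deepTools. Not given in the sources used here were the aligner, the counter with its strand setting, and the annotation. Control replicate 3 exceeded replicate 1 at 0 genes (chi-squared per degree of freedom 0.632), and BDNF replicate 3 likewise (0.854), against 1.69 to 5.10 for distinct libraries of a group. The third libraries were therefore left out of the tests and averaged with the first for levels. Leaving out a further library leaves an arm with 1 sample, whose spread is assumed to be like that of the other groups.

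Genes were kept with filterByExpr (minimum count 10, minimum total 15), which left 13452 genes. TMM scaling and edgeR 4.0.16 quasi-likelihood F tests (R 4.3.3, limma 3.58.1) with 1 mean per group gave 5 comparisons, each adjusted by Benjamini-Hochberg over all genes tested and called at 0.05. A floor of 3 counts is 0.212 to 0.593 CPM. The procedure was tested on simulated data. Alternatives were RLE size factors, no filter, all 10 libraries, a replicate block, a length and GC correction (lowess span 0.3), DESeq2 1.42.0 and each library left out.

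Replicate numbers were not used to pair the samples in the main tests, and whether same-numbered samples share a culture is not given. Names, coordinates, exon lengths and coding sequences come from GENCODE M21. KRAB and SCAN domains were searched with profiles built from 225 and 12 windows of these proteins (pyhmmer 0.12.3, E value at most 0.001), with Python 3.11.15, pandas 2.3.3 and Biopython 1.88. A BTB search was not run.

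Named were up to 12 called members per direction and comparison by size of change, the 5 highest and 5 lowest by raw CPM, 3 genes under the minimum, members of 3 role lists, and up to 6 called corepressor genes per comparison by adjusted p, of which 1 is not reported here. Members and lists were chosen with earlier results of these data known. No set test was run.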

Additional observations from a re-analysis of the deposited data

Results flagged for a closer look

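The BDNF response of Zfp142 differed between the viruses by -0.63 on the log2 scale (H2BE virus minus control virus, adjusted p = 0.0444 by edgeR). This was the only 1 of 282 members with such a call. Leaving out any 1 of the Control, H2BE or H2BE-BDNF libraries ended the call (adjusted p of 0.0568 to 0.306), as did the length and GC correction (adjusted p = 0.115), and DESeq2 gave no adjusted p for it.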

How the results depend on the processing

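No called result changed direction in the alternatives run, but medians near 0 did. The median of members without a KRAB box, 0.025 for BDNF vs Control, was -0.014 without Control replicate 1 and -0.0039 without BDNF replicate 1, and that of all members for H2BE-BDNF vs BDNF, 0.0057, was -0.0068 without a low-count filter. With all 10 libraries taken as replicates the members called were 111 for BDNF vs Control, 25 for H2BE vs Control, 2 for H2BE-BDNF vs BDNF and 19 for the difference between viruses. That setting counts the third libraries of Control and BDNF, which exceeded the first at 0 genes, as further samples. Its p-values therefore understate the spread between samples, and its larger counts are not added evidence. In the same setting 17 corepressor genes, 56 members with and 55 without a KRAB box were called for BDNF vs Control, and the median log2 fold change of the members was -0.051 for BDNF vs Control and -0.0437 for the difference. DESeq2 called 24 members for BDNF vs Control (13 higher, 11 lower, against 24 and 40 by edgeR), 13 for H2BE-BDNF vs H2BE, 1 for H2BE vs Control and 0 for the difference. For BDNF vs Control it called 5 corepressor genes, 9 members with and 15 without a KRAB box, and for H2BE-BDNF vs H2BE 5 with and 8 without. Without a low-count filter 3 members were called for H2BE-BDNF vs BDNF, and after length and GC correction 0 for the difference. With 1 library left out the members called ran from 33 to 67 for BDNF vs Control, 12 to 40 for H2BE-BDNF vs H2BE, 0 to 11 for H2BE vs Control, 0 to 8 for H2BE-BDNF vs BDNF and 0 to 7 for the difference. With a KRAB box they ran from 17 to 31 under the control virus and 5 to 21 under the H2BE virus, and without one from 16 to 36 and 7 to 19. Corepressor genes ran from 5 to 11 and from 3 to 8. The median ran from -0.0987 to -0.0379 for BDNF vs Control and from 0.0361 to 0.0613 for H2BE vs Control. The cause of these shifts was not tested. Same-numbered libraries had deviations correlated at -0.17 (Control and BDNF) and -0.30 (H2BE and H2BE-BDNF), so the numbers were not read as pairs. With the replicate block 54, 31, 0, 1 and 1 members were called for BDNF vs Control, H2BE-BDNF vs H2BE, H2BE vs Control, H2BE-BDNF vs BDNF and the difference. A crossed block, added after seeing the data, gave 80 and 40 for the first pair of these. Of the calls, 19 of 64 for BDNF vs Control and 8 of 33 for H2BE-BDNF vs H2BE were kept in every alternative run.

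Depth limits the lowest members most. The groups hold 2 samples each, nothing in the labels says that these came from separate cultures, and p-values then measure only the spread between these samples.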
